A study of Schizosaccharomyces pombe with 6 samples.

Results

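The flocculins of fission yeast are glycoproteins of the cell surface that let cells stick to each other, and the *pfl* genes (for *S. pombe* flocculins) encode a family of them. The 8 listed members, *pfl2* to *pfl9*, were located by symbol in the RefSeq annotation of the ASM294v3 assembly, out of 5113 protein-coding genes on chromosomes I, II and III. All 8 symbols matched. The family was selected on these symbols with the peak positions and scores of the same lists already known, so the peak counts of its members are descriptions and were not tested.

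The peaks come from ChIP-seq of *S. pombe* cells of the strain Hap2-GFP Arp5-3HA, grown in rich medium (YES). Every sample came from this strain, so both tags were present in all samples. Antibodies to GFP and to HA were used to pull down Hap2 and Arp5, each in 2 replicates. The study took Hap2 to be a small accessory subunit of Ino80C, the Ino80 nucleosome remodeling complex, and Arp5 to be a canonical subunit of it. The comparison asks where the same 8 genes carry either protein. A further 2 labelled samples are inputs, not used here, and no untagged strain is among the labelled samples. The lists hold 3764 and 4267 Hap2 peaks and 4207 and 4277 Arp5 peaks, with median widths of 240 bp for Hap2 and 230 bp for Arp5 in each replicate.

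Flocculins share a signal for export and a domain that faces the medium, and many carry runs of repeated, serine- and threonine-rich units that hold the binding part away from the cell wall. In *S. pombe* their genes are mostly silent in rich medium and are switched on by the MADS-box factor Mbx2, while *gsf2* encodes the flocculin that dominates when cells flocculate. Such genes in yeasts often lie near chromosome ends, behind long intergenic stretches from which noncoding RNAs are transcribed. Transcript levels were not measured in these samples.

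Of the 4 longest members, 3 carry long internal repeats. Tandem repeats were sought in the coding sequence at periods of 30 to 450 bp with at least 80% identity between neighbouring units. They took up 1917 bp of *pfl2* (61.6% of its coding sequence), 1840 bp of *pfl3* (63.0%) and 2780 bp of *pfl5* (72.2%), and none was found in *pfl4*, *pfl6*, *pfl7*, *pfl8* or *pfl9*. Among all coding genes 28 (0.548%) had 300 bp or more of such repeat and 12 (0.235%) had 800 bp or more. The unit reported for *pfl2* is 48 bp or 16 codons, and that for *pfl3* and for *pfl5* is 105 bp or 35 codons. Repeat at that period took up 803 of the 1917 bp in *pfl2*, 1243 of the 1840 bp in *pfl3* and 2605 of the 2780 bp in *pfl5*. The rest matched at other periods only.

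Consecutive units are shown as examples, since body peaks over *pfl3* and *pfl5* lie wholly or partly in the tandem repeats. For *pfl2* and *pfl3* they are the in-frame run with the fewest differing positions in the gene. For *pfl5* they are the in-frame run most like the *pfl3* unit. The likeness of the *pfl2* and *pfl3* copies thus follows from the choice and does not describe the whole repeat. No peak in any list touches the *pfl5* units shown, at coding positions 691 to 1110. Units are read 5′ to 3′ on the coding strand from the ASM294v3 sequence, and capitals mark a base that differs from the most common base at that position among the units shown for the gene. The *pfl2* units run over chrI:3988919-3989062 (minus strand), the *pfl3* units over chrII:670751-671170 (minus strand) and the *pfl5* units over chrII:4422103-4422522 (plus strand), all in coding exons.
pfl2 unit 1: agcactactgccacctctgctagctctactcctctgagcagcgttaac
pfl2 unit 2: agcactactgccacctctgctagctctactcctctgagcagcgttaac
pfl2 unit 3: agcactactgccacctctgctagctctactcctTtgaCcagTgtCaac
pfl3 unit 1: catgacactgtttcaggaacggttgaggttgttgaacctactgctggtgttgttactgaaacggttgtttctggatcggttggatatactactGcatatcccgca
pfl3 unit 2: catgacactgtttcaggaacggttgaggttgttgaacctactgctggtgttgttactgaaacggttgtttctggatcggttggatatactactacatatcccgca
pfl3 unit 3: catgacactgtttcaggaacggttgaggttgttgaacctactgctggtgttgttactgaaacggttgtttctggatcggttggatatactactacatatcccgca
pfl3 unit 4: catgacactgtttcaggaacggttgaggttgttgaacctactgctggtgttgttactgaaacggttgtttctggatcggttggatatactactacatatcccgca
pfl5 unit 1: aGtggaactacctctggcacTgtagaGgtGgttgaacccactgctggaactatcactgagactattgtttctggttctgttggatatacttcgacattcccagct
pfl5 unit 2: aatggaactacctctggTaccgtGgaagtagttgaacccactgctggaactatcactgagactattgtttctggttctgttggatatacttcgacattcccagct
pfl5 unit 3: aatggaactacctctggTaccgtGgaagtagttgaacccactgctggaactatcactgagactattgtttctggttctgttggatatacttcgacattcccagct
pfl5 unit 4: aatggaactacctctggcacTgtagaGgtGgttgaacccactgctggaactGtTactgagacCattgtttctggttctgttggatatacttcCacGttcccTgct

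Units 1 and 2 of *pfl2* are identical, and unit 3 differs from them at 4 bases. Units 2, 3 and 4 of *pfl3* are identical over all 105 bases, and unit 1 differs at 1. The *pfl5* units vary at 12 positions. The most common bases of the *pfl3* and *pfl5* units are the same at 76 of 105 positions (72.4%). As the *pfl5* run was chosen for this likeness, the share is the highest over all in-frame starts. Whether the units of both genes are related was not tested.

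In 50 bp words, 20.9% of the coding sequence of *pfl2*, 37.6% of *pfl3* and 52.8% of *pfl5* occurred more than once in the genome, and every copy lay in the same gene. *pfl6* differed: 1152 of its 1202 words (95.8%) occurred a second time, in SPBC1348.08c near the left end of chromosome II (chrII:22111-23529). *pfl4*, *pfl7*, *pfl8* and *pfl9* held no such word. Over the 8 coding sequences together the share was 30.9%. *pfl2*, *pfl3*, *pfl5* and *pfl6* each had more than 10% of repeated words, as had 2.78% of all coding genes. The median share over all coding genes was 0%. How the authors treated reads that fit several places is not given in the sources used here. Where a peak lies over repeated words, which copy of a unit gave its reads therefore cannot be told apart.

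By position, *pfl5*, *pfl6*, *pfl7*, *pfl8* and *pfl9* lay within 120 kb of an end of chromosome I or II, which is 5 of 8 members against 2.95% of all coding genes. *pfl6* was the closest, at 42.1 kb, and *pfl9*, *pfl8*, *pfl5* and *pfl7* followed at 50.2, 99.8, 114 and 118 kb. *pfl2*, *pfl3* and *pfl4* lay in the arms. The members stood behind long gaps: the median distance from the gene start to the next coding gene upstream was 3090 bp against 461 bp over all coding genes, and 6 of 8 had no coding gene in the 2000 bp upstream against 7.41%. The exceptions were *pfl2*, with SPAPB15E9.02c at 417 bp, and *pfl6*, with *ayr2* at 1396 bp. The median GC content of the 2000 bp upstream was 30.9% for the members and 34.9% for all coding genes. These windows differ in content, since those of most coding genes include part of another coding gene. GC content was not compared with genes that have an equally long gap. Each member has 1 coding exon. The annotated transcript reaches 1063 bp before the start codon in *pfl2* and 1615 bp in *pfl4*, while it begins at the start codon in *pfl6*, *pfl7* and *pfl9*, so that the upstream window of the last 3 includes any leader that is not annotated.

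Peaks were counted where they shared at least 1 bp with the 2000 bp upstream of the annotated gene start or with the gene body. A Hap2 peak lay upstream in both replicates at 2 of 8 members, *pfl2* and *pfl8*, and the share of all coding genes was 35.4%. An Arp5 peak lay upstream in both replicates at *pfl2* alone, against 27.0% of coding genes. Over the body, Hap2 peaks lay in both replicates at 3 members (*pfl2*, *pfl4*, *pfl8*) against 31.0%, and Arp5 peaks at 5 members (*pfl2*, *pfl3*, *pfl4*, *pfl5*, *pfl8*) against 38.1%. In all 4 lists at once, a peak lay upstream at 1 member (*pfl2*) against 18.3% of coding genes, and in the body at 3 against 23.6%. Among coding genes at least as long as the shortest member, the body shares were 33.3% for Hap2 and 44.2% for Arp5. With 8 genes, none of these counts is a result about the family.

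The lists of the 2 Hap2 replicates differed in part in the members with a peak, and those of Arp5 held the same members. Upstream, Hap2 replicate 1 had a peak at 3 members (43.0% of coding genes) and replicate 2 at 4 (48.2%), of which only *pfl2* and *pfl8* were the same. Both Arp5 replicates had *pfl2* alone, against 37.6 and 38.9%. In the body, Hap2 replicate 1 had peaks at 3 members (39.9%) and replicate 2 at 5 (44.4%), the latter being the same 5 as in each Arp5 list (48.5 and 49.6%). The map of peaks along the 8 genes shows how unlike the members are behind these counts.

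**Figure D1:**
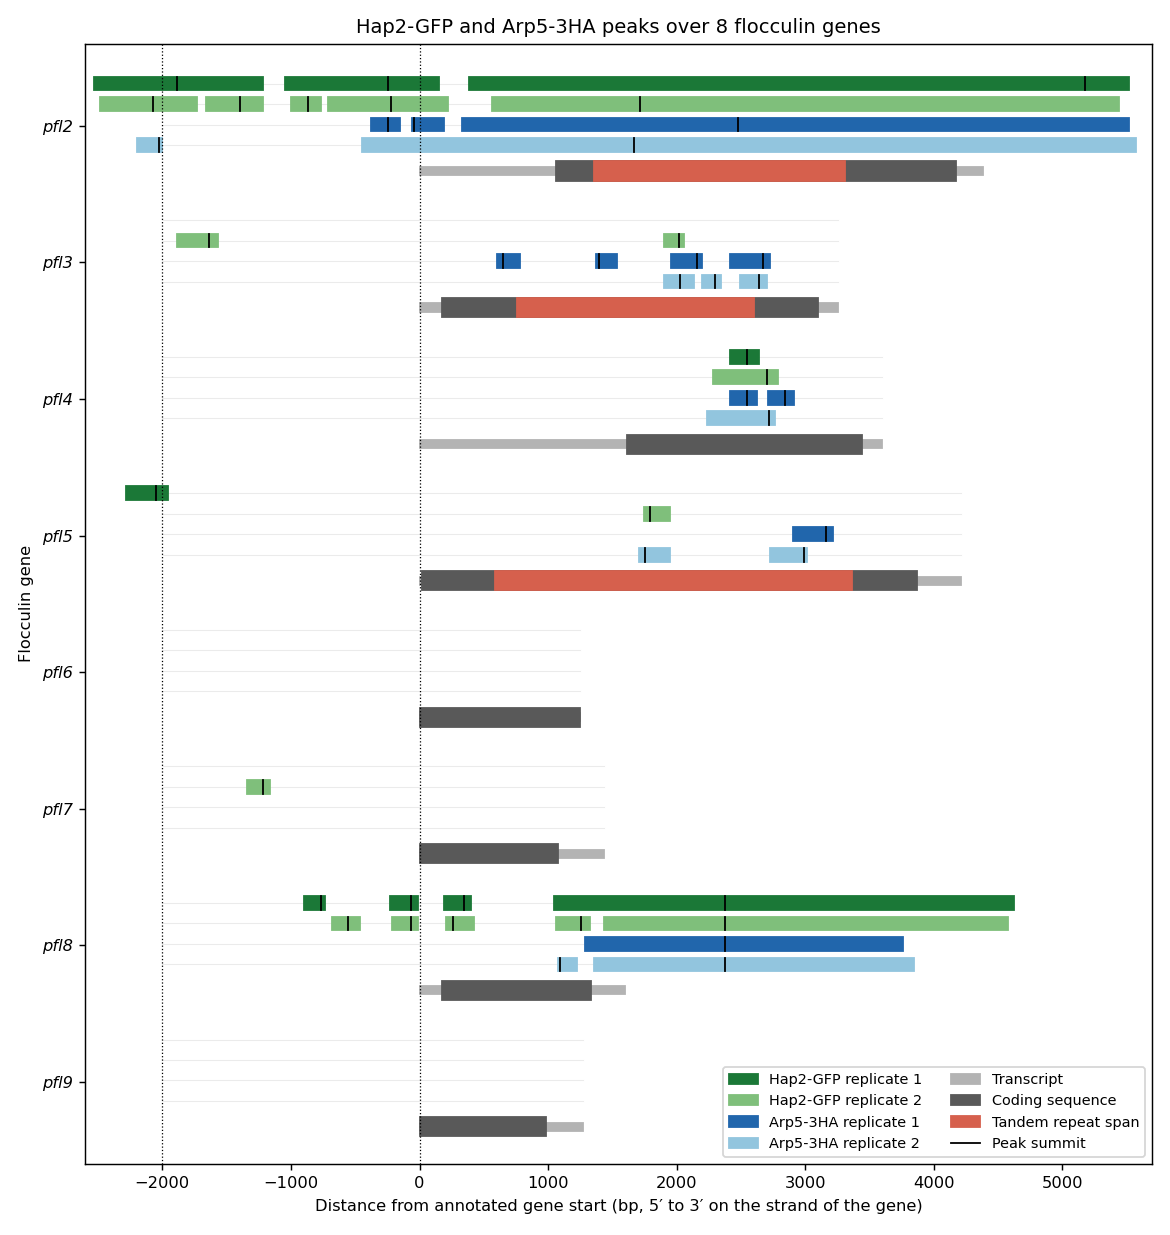
Peaks of the 4 lists over the 2000 bp upstream and the body of the 8 flocculin genes, by distance in bp from the annotated gene start (dotted line at 0; the line at -2000 ends the upstream window). Coloured bars are peaks, black ticks their summits, and the lower track shows transcript, coding sequence and the span of tandem repeats; *pfl2* is covered almost from end to end, *pfl6* and *pfl9* carry no peak.

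*pfl2* (SPAPB15E9.01c, chrI:3987033-3991412, minus strand, 4380 bp) was covered by peaks almost from end to end. Peaks took up 94.7 and 92.2% of its body in Hap2 replicates 1 and 2, and 96.8 and 100% in Arp5 replicates 1 and 2. All of its 3111 bp of coding sequence, repeat and non-repeat alike, lay under a peak in every list. Only 66 of 5113 coding genes (1.29%) had 80% or more of the body covered in all 4 lists, and *pfl2* was the only flocculin among them. Of the 66, *pma1*, which encodes the plasma membrane proton pump, was the only one longer than *pfl2*. The list also held *tef3* (translation elongation factor), *bip1* and *hsp90* (chaperones) and *mbx2*.

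The peak over the *pfl2* body was among the 5 widest of each list. It was 5140 bp in Hap2 replicate 1 and 4880 bp in replicate 2, and 5190 bp in Arp5 replicate 1 and 6020 bp in replicate 2. In each list it ran past the 3′ end of the gene into SPAPB18E9.05c, a coding gene, and over the noncoding RNA gene SPNCRNA.3779. By score, which served only as a rank within a list, this peak ranked 133 and 112 for Hap2 and 23 and 10 for Arp5, where rank 1 is the highest. The percentile, meaning the share of peaks in the list with a lower score, was 96.3, 97.3, 99.5 and 99.7%. The summits did not fall on 1 place. Counted from the gene start, they stood at 1716 in Hap2 replicate 2, 2476 in Arp5 replicate 1 and 1666 in Arp5 replicate 2, while in Hap2 replicate 1 the summit stood at 5176, beyond the gene.

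Upstream of *pfl2* the lists of the 2 proteins differed in extent. Hap2 peaks took up 91.5 and 82.5% of the 2000 bp, and Arp5 peaks 14.4 and 22.5%. In both Hap2 lists at least 80% of the window was covered, as at 39 of 5113 coding genes (0.763%). The 2 Hap2 lists shared 1650 of the 1830 bp that either covered (90.2%), and the Arp5 lists shared 288 of 450 bp (64.0%). With 2 lists a protein the difference between the proteins was not tested.

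The highest of these Hap2 peaks spanned the gene start. In replicate 1 it was 1200 bp wide, from -1048 to 151, with its summit at -244, and it held rank 3 of the whole list (99.9th percentile). In replicate 2 it was 930 bp wide, from -708 to 221, with its summit at -224 and rank 27 (99.4th percentile). The coding gene SPAPB15E9.02c lay under the same peak, whole in replicate 1 and in part in replicate 2. So did, at least in part, the noncoding RNA genes SPNCRNA.3780 and SPNCRNA.954, of which the latter is annotated on the strand opposite to *pfl2*. Arp5 replicate 1 had a peak of 230 bp with its summit also at -244 (82.4th percentile) and another of 250 bp with its summit at -44 (65.1). In Arp5 replicate 2 the wide peak of the body reached back to -448.

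Farther upstream, Hap2 replicate 1 had a peak of 1310 bp with its summit at -1884 (95.3rd percentile). Hap2 replicate 2 had peaks of 230, 440 and 760 bp there, with summits at -864, -1394 and -2074 and percentiles of 63.5, 96.8 and 96.9. Those from -1219 outward lay over SPNCRNA.954 and over no other coding gene. The Arp5 lists had only a peak of 200 bp at the edge of the window in replicate 2, with its summit at -2024 and a percentile of 14.4.

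The sequence around the position that Hap2 replicate 1 and Arp5 replicate 1 shared as a summit upstream of *pfl2* is shown, together with the stretch before *pfl8*, the only other member with Hap2 upstream in both replicates. Both are written 5′ to 3′ on the strand of the gene from ASM294v3, with the 11 bases centred on the summit in capitals. The *pfl2* stretch is chrI:3991556-3991756 (minus strand, -344 to -144 from the gene start, within SPNCRNA.954), and the *pfl8* stretch is chrI:99666-99832 (plus strand, -167 to -1, within SPNCRNA.607, a noncoding RNA gene on the strand opposite to *pfl8*).
pfl2 upstream: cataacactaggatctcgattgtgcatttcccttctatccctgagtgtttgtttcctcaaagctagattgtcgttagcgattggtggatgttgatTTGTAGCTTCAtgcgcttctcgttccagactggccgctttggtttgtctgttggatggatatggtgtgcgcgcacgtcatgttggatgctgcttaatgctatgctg
pfl8 upstream: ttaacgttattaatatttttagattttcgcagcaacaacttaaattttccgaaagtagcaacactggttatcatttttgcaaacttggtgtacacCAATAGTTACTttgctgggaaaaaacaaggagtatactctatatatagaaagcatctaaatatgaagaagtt

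The *pfl2* stretch has a GC content of 46.8% and the *pfl8* stretch 29.9%. Each window of 2000 bp was also searched on both strands for letters known as sites of factors that act on cell surface genes, and no matches in a member overlapped. TGACGT, the core of the site of the stress factor Atf1, occurred in 1 member, *pfl2*, at -176 to -171 on the opposite strand and so within the stretch shown, and in 27.6% of coding genes. GTGGGAA and GTGAGAA, sites of the CSL factors Cbf11 and Cbf12, occurred in *pfl6* and *pfl7* (12.3% of coding genes) and in *pfl2* and *pfl9* (19.7%). These are matches of letters only.

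*pfl8* (SPAC1F8.06, also named *fta5*, chrI:99833-101431, plus strand, 1599 bp) carried short Hap2 peaks before and after its start and shared a wide peak with its neighbour. Close to the start, the Hap2 peaks were 220 bp (-232 to -13) in replicate 1 and 200 bp (-212 to -13) in replicate 2, and both had their summit at -67. Their scores were low, at the 8.69th and 23.7th percentiles. Each Hap2 list had 1 more peak upstream, with its summit at -767 (32.4th percentile, over SPNCRNA.2045 as well) in replicate 1 and at -557 (1.76) in replicate 2, and these did not overlap each other. Part of the *pfl8* window, between -1982 and -630, held words with up to 68 copies in the genome, which made up 34.3% of the words of the window. The peaks at -67 lay outside that range, and those at -767 and -557 touched it. Neither Arp5 list had a peak upstream of *pfl8*.

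Inside *pfl8*, Hap2 replicate 1 had a peak of 210 bp with its summit at 343 (77.8th percentile) and replicate 2 one of 220 bp at 263 (71.0). These lay over the first part of the coding sequence, at coding positions 11 to 220 and 31 to 250. The 3′ end was reached by a wide peak in all 4 lists, of 3580 and 3140 bp for Hap2 and 2470 and 2490 bp for Arp5. Its summit stood at 2373 in every list, outside *pfl8* and in the neighbour *pdc101*, which encodes a pyruvate decarboxylase. It ranked 43, 32, 49 and 22 by score. The Hap2 peaks ran on into SPAC1F8.08. Noncoding RNA genes SPNCRNA.2046, SPNCRNA.2047 and SPNCRNA.2048 lay under the wide peak in all 4 lists, and SPNCRNA.2049 in the Hap2 lists. Of the Arp5 peaks that touch *pfl8*, only 1, of 150 bp in replicate 2 (summit at 1093, 1.87th percentile), had its summit inside the gene. Peaks covered 47.6 and 40.7% of the body for Hap2 and 19.4 and 24.5% for Arp5.

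*pfl4* (SPCC188.09c, chrIII:1492788-1496382, minus strand, 3595 bp) had peaks of both proteins in 1 part of its coding sequence and none upstream. Hap2 replicate 1 had a peak of 230 bp with its summit at 2546, and Hap2 replicate 2 a peak of 510 bp with its summit at 2706. Arp5 replicate 1 had peaks of 210 and 200 bp with summits at 2546 and 2846, and Arp5 replicate 2 had 1 of 530 bp at 2716. All 5 lay between coding positions 618 and 1297, a stretch with no tandem repeat. The Hap2 replicates shared 230 of the 510 bp that either covered (45.1%), and the Arp5 replicates 260 of 680 bp (38.2%). The scores stood in the middle of the lists, from the 55.2nd to the 71.0th percentile. The noncoding RNA gene SPNCRNA.7393 lay under all of these peaks, and SPNCRNA.1201 under some of them.

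**Figure D2:**
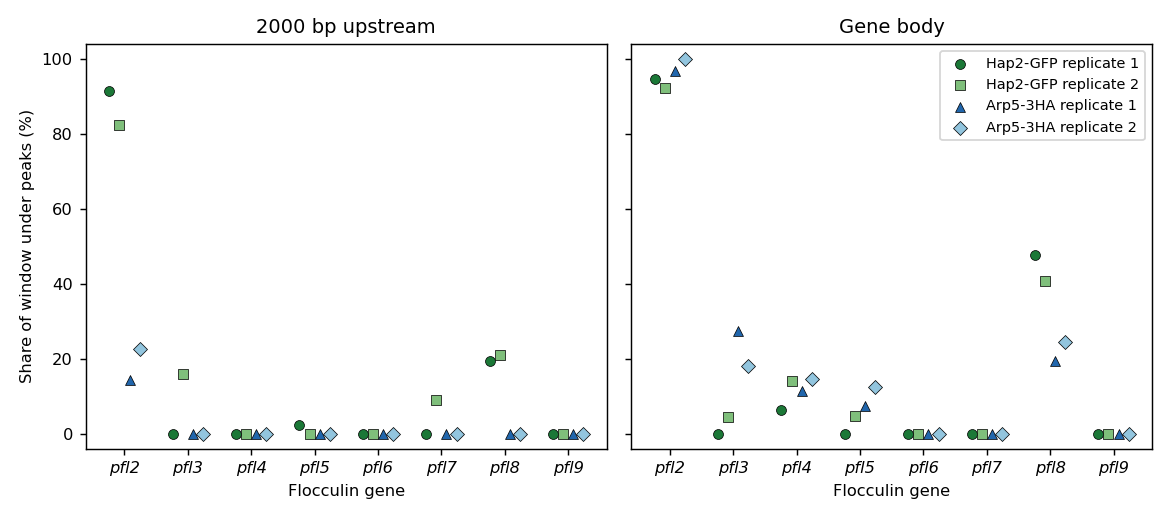
Share of the 2000 bp upstream (left) and of the gene body (right) that lies under peaks, in percent, for each flocculin gene, with 1 point for each of the 4 lists. *pfl2* stands above 80% in the body in all 4 lists and upstream in the Hap2 lists only, at 91.5 and 82.5%.

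*pfl3* (SPBC947.04, chrII:669581-672835, minus strand, 3255 bp) carried Arp5 in its body in both replicates and Hap2 in 1. Arp5 replicate 1 had 4 peaks of 160 to 310 bp, with summits at 649, 1399, 2159 and 2669. Arp5 replicate 2 had 3 peaks of 150 to 230 bp, with summits at 2029, 2299 and 2639. Their percentiles by score ran from 1.95 to 44.0. Hap2 replicate 2 had a body peak of 150 bp at 2019 (1.76th percentile) and an upstream peak of 320 bp at -1641 (75.1), over SPNCRNA.322 and SPNCRNA.4826. The nearest peak of Hap2 replicate 1 stood 3666 bp from the gene. The Arp5 replicates shared 390 of the 1090 bp that either covered (35.8%), so they differed over most of this length.

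The Arp5 peaks of *pfl3* fell on the repeat and beside it. They covered 33.2% of the repeat and 25.9% of the rest of the coding sequence in replicate 1, and 26.5 and 9.52% in replicate 2. The peaks with summits at 1399, 2159, 2299 and 2029 lay wholly in the repeat. Those at 2669 and 2639 had 60.3 and 51.0% of their length there, and that at 649 had 12.8%. Of the 50 bp words under the peaks at 2669 and 2639, 1.29 and 0% occurred more than once in the genome. Under the Arp5 peaks wholly in the repeat the share was 66.7 to 100%. The noncoding RNA gene SPNCRNA.4825 lay under every body peak of *pfl3* other than that at 649.

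*pfl5* (SPBC1289.15, chrII:4421395-4425608, plus strand, 4214 bp) gave a similar picture with fewer peaks. Arp5 replicate 1 had a peak of 310 bp with its summit at 3161 (82.4th percentile). Arp5 replicate 2 had peaks of 240 bp at 1751 (59.9) and of 290 bp at 2991 (14.4), and Hap2 replicate 2 had 1 of 200 bp at 1791 (29.0). All 4 peaks lay wholly in the tandem repeat, and no peak touched the other 1072 bp of the coding sequence. The repeat made up 72.2% of the coding sequence, and its GC content was 46.4% against 37.5% elsewhere in it. The Arp5 replicates shared 110 of 730 bp (15.1%). Upstream, Hap2 replicate 1 had a peak of 330 bp whose summit, at -2049, lay beyond the window and of which 46 bp lay inside it, over SPNCRNA.6603.

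*pfl6*, *pfl7* and *pfl9* had no peak over the body in any list. *pfl6* (SPAC977.07c, chrI:42057-43307, minus strand, 1251 bp) had none upstream either. The nearest peak stood 327 bp from the gene in Hap2 replicate 1 and 5907 bp or more away in the others. Its near-identical copy SPBC1348.08c likewise had no peak upstream or in the body in any list, and 98.1% of the 50 bp words upstream of *pfl6* also occur elsewhere, so that a short read from there fits more than 1 place. *pfl9* (SPAC186.01, chrI:5527692-5528959, plus strand, 1268 bp) had its nearest peak 2142 bp away or farther in each list and held no repeated word. *pfl7* (SPBC359.04c, chrII:117892-119328, minus strand, 1437 bp) had 1 peak of 180 bp upstream in Hap2 replicate 2, with its summit at -1218, over SPNCRNA.293, at the 1.76th percentile. Having no peak in either window in any list was not particular to *pfl6* and *pfl9*: 702 coding genes had none.

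**Figure D3:**
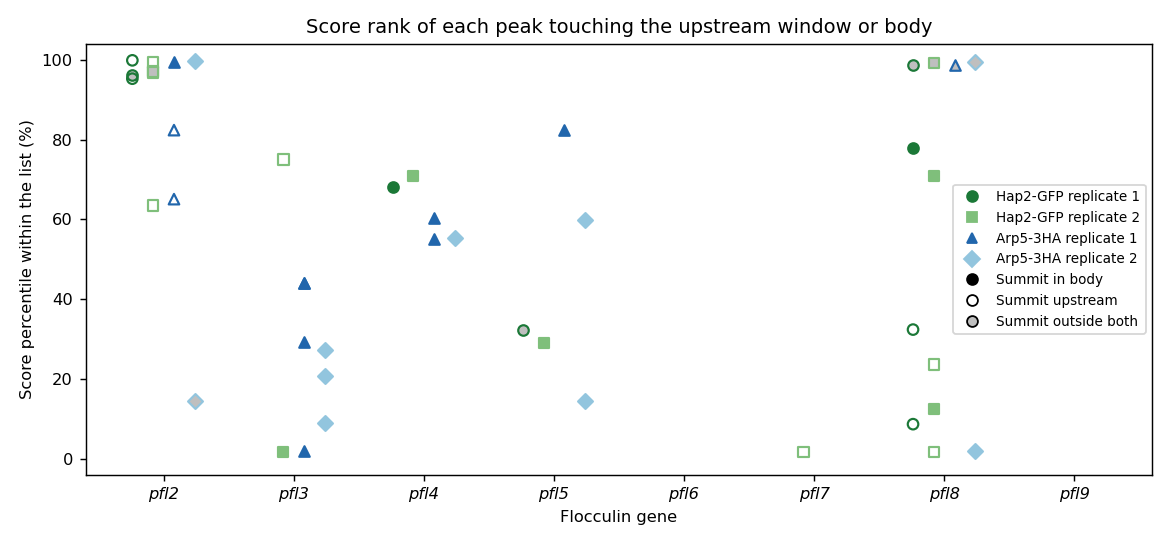
Percentile by score within its own list (vertical axis, percent of peaks with a lower score) of each peak that touches the upstream window or the body of a flocculin gene (horizontal axis). Filled symbols have their summit in the body, open ones upstream and grey ones outside both; body and upstream peaks above the 95th percentile occur only at *pfl2*, and the grey points near the top at *pfl8* are the wide peak of *pdc101*.

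GC content and length of the coding sequence were set beside the presence of peaks. The 5 members with an Arp5 body peak in both replicates had a GC content in the coding sequence of 40.8 to 49.2%, and the 3 without had 39.3 to 40.4%. The groups nearly meet, at 40.8% in *pfl8* and 40.4% in *pfl6*. In Arp5 replicate 1 *pfl8* was touched only by the wide peak with its summit in *pdc101*. *pfl2* stood at 49.2%, the 98th percentile of coding genes, and *pfl4*, *pfl5* and *pfl3* at 44.6, 44.0 and 42.6%. Over all coding genes, an Arp5 body peak in both replicates was found at 16.6% of those with a coding sequence under 1800 bp and a GC content under 40%, and at 90.4% of the 136 with 1800 bp or more and 42 to 46% GC, the class of *pfl3*, *pfl4* and *pfl5*. For Hap2 the shares were 15.9 and 76.5%. In the class of both *pfl6* and *pfl8*, under 1800 bp and 40 to 42% GC, the shares were 33.9% for Arp5 and 28.3% for Hap2. In the class of *pfl2*, with 1800 bp or more and over 46% GC, 25 of 25 genes had an Arp5 body peak and 24 had a Hap2 peak. The part of length and GC content in the peaks of the members was not tested.

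**Figure D4:**
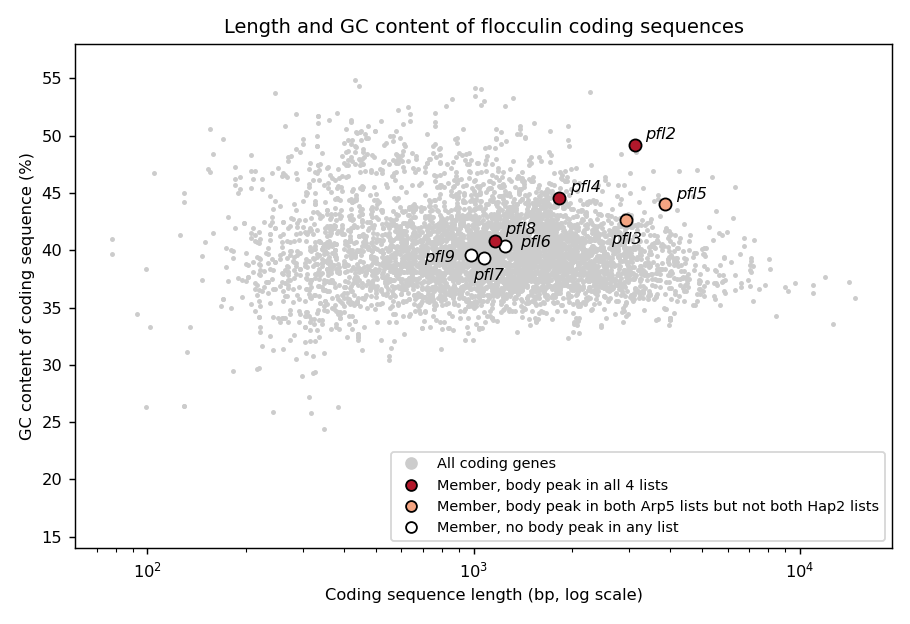
GC content of the coding sequence in percent against its length in bp (log scale) for all coding genes (grey) and the 8 flocculins. Colours give the lists with a body peak: dark red for all 4 (*pfl2*, *pfl4*, *pfl8*), light red for both Arp5 lists but not both Hap2 lists (*pfl3*, *pfl5*), white for none (*pfl6*, *pfl7*, *pfl9*); *pfl2* has the highest GC content of the family, 49.2%.

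Position near a chromosome end was also set beside the peaks. Of the 151 coding genes within 120 kb of an end of chromosome I or II, 31.1% had Hap2 upstream and 15.9% in the body in both replicates, and 5.30 and 10.6% had Arp5. Over all coding genes these shares were 35.4 and 31.0% for Hap2 and 27.0 and 38.1% for Arp5. The part of position in the peaks of the members was not tested. The 5 members there had Hap2 in both replicates upstream at 1 (*pfl8*) and in the body at 1 (*pfl8*), and Arp5 in the body at 2 (*pfl5*, *pfl8*) and upstream at none. Among the 379 coding genes with no coding gene in the 2000 bp upstream, Hap2 lay upstream in both replicates at 61.7% and Arp5 at 17.7%. Of the 6 members of that kind, Hap2 lay upstream at 1 and Arp5 at none.

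Other genes of cell adhesion and its control were read in the same way. All 3 of the other adhesins had a Hap2 peak upstream in both replicates and none had an Arp5 peak there in both, although 1 Arp5 list had a peak upstream of *map4*. These are *gsf2*, the dominant flocculin, and *mam3* and *map4*, the adhesins of mating cells. The body of *gsf2* (6814 bp) was covered to 9.42 and 22.8% by Hap2 and to 21.3 and 17.5% by Arp5, far below that of *pfl2*. Of 12 regulators of flocculation found in the annotation, Hap2 lay upstream in both replicates at 6, namely *mbx2*, *cbf12*, *ldb1*, *lkh1*, *tup11* and *ssn6*. Arp5 lay upstream at 3, namely *mbx2*, *ldb1* and *tup12*. Arp5 lay over the body of 8 of the 12 and Hap2 over that of 4. The shares of all coding genes were 35.4% (Hap2) and 27.0% (Arp5) upstream and 31.0% (Hap2) and 38.1% (Arp5) over the body.

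*mbx2*, which encodes the activator of the flocculin genes, resembled *pfl2* in extent over the body. Its body of 2020 bp was covered to 91.7 and 100% by Hap2 and to 100% in both Arp5 lists, by 1 peak of 2390 to 2830 bp. The highest percentile of a peak there was 96.7 and 98.3 for Hap2 and 99.1 and 99.2 for Arp5. Upstream, unlike at *pfl2*, the proteins covered like shares, 42.5 and 30.5% for Hap2 and 36.4 and 41.4% for Arp5.

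Of 20 genes for enzymes and proteins of the cell wall, 11 had Hap2 upstream in both replicates: the glucan synthase genes *bgs1*, *bgs3* and *bgs4*, the glucanosyltransferase genes *gas1*, *gas2* and *gas5*, the glucanase genes *exg1*, *exg3* and *eng1*, and *bgl2* and *psu1*. Arp5 lay upstream at 4 (*gas4*, *exg3*, *eng2*, *bgl2*). Over the body, Hap2 lay at 13 and Arp5 at 15 of the 20. Beside these stand the shares of all coding genes, 35.4 and 27.0% upstream and 31.0 and 38.1% over the body for Hap2 and Arp5. Hap2 lay upstream in both replicates at 2 of 8 members and at 3 of 3 other adhesins, among them the flocculin gene *gsf2*. The counts were 6 of 12 for the regulators and 11 of 20 for the cell wall genes, and 35.4% for all coding genes. Differences between these lists were not tested, and the count of members is no result about the family.

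The family as a whole has no common pattern to which single genes could be likened. The 8 coverage values (2 windows in 4 lists) had member medians of 0 and 4.50% for Hap2 upstream, 0% for Arp5 upstream in both replicates, 0 and 4.68% for Hap2 in the body and 9.38 and 13.7% for Arp5 in the body. The 5 coding genes outside the family nearest to these medians were *yta12*, *sgo2*, *gyp3*, SPAC4A8.02c and *rmn1*, at Euclidean distances of 3.07 to 5.30 percentage points. *pfl2* stood above these medians in all 8 values.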

How the data were processed

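ChIP-seq peaks of Hap2-GFP and Arp5-3HA were analysed in 2 replicates each, grouped by the protein and number in the labels. Tools listed in the submitters' processing notes are MACS2 2.1.2, BWA 0.7.17, Trimmomatic 0.36 and deepTools (version not given). The authors called peaks on each sample separately. For commands, thresholds, the input used and the genome build, the entry is: not given in the sources used here.

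A list gives a start, an end, a summit offset and a score per peak. As deposited, the score is a whole number (16 to 584 over the lists) whose scale is not stated, so peaks were only ranked by it, list by list. The columns meant for enrichment and significance are 0 in every row. The lists carry no read counts, so the depth per sample is unknown. Peaks on sequences other than chromosomes I, II and III (6, 8, 1 and 0 per list) were left out.

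Genes and sequences came from RefSeq, ASM294v3. Its chromosome III is 2452883 bp long, which is where the last peak ends in every list. tRNA genes lay under a peak at 92.9 to 100% (Hap2) and 76.8 to 89.7% (Arp5) per chromosome, so the coordinates match over the arms. Proteins were not analysed here. A further motif searched upstream of the genes is not reported here.

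The genes named are the 8 members, every gene under a peak in a member's window, genes of 3 lists (adhesins, flocculation regulators, cell wall) with an upstream peak in both replicates, and the 5 genes nearest in coverage. *pma1*, *tef3*, *bip1*, *hsp90* and the copy of *pfl6* were named after their values were seen. The members and lists were chosen with earlier results of these data known, so no test was made. Alternatives were other overlaps, windows, score thresholds, replicate rules, backgrounds and word lengths. Overlap and repeat code was tested on simulated data. Python 3.11.15, numpy 2.4.6, scipy 1.17.1 and matplotlib 3.10.9 were used.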

Additional observations from a re-analysis of the deposited data

How the results depend on the processing

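Of 42 alternatives, 31 left a value close to the one reported and 11 moved it. The count of members with Hap2 upstream in both replicates (2) was 1 with only peaks at or above the median score of their list, where *pfl8* was lost, 5 with a peak in either replicate, and 1 of the 6 members with no coding gene upstream. With 1 replicate left out it ranged from 3 to 4. It rose to 4 (*pfl2*, *pfl3*, *pfl7*, *pfl8*) without replicate 1. The count with Hap2 over the body (3) was 5 with either replicate and ranged from 3 to 5 with 1 replicate left out, 5 being the value without replicate 1. *pfl2* dropped out of it when the summit had to lie in the gene. The count with Arp5 upstream (1) was 0 when 50% of the peak or its summit had to lie in the window, and 0 of 6 members with no coding gene upstream. The count with Arp5 over the body (5) stayed at 4 or 5 under every alternative run, and it lost *pfl8* when the summit or 50% of the peak had to lie in the gene and *pfl3* with only peaks at or above the median score. The share of coding sequence in repeated words (30.9%) was 22.6% with words of 100 bp and 33.7% with words of 36 bp.

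No paired analysis was possible because the results come from no test. The labels do not say whether replicates are separate cultures. With 2 lists a protein and no depth, a missing peak shows only that none was listed. Where a coding sequence is repeated, the placement of reads is unknown.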
